A study of Mus musculus with 32 samples.

Results

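The genes described here encode metabotropic glutamate receptors, the G protein-coupled receptors for glutamate. They were taken by symbol and are Grm2, Grm3, Grm4, Grm5, Grm7 and Grm8, 6 of the 55573 genes in the deposited count table. The study used cultured mouse hippocampal neurons from newborn pups, grown on porous membranes so that neurites on the lower side could be scraped off apart from the cell bodies. It measured RNA by RNA-seq in 16 libraries and m6A, a methyl mark on adenosines of RNA, by DART-seq in 16 more. In the RNA-seq libraries, 2 genotypes, 2 compartments (soma and neurites) and 2 treatments gave 8 groups of 2 libraries each.

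WT neurons were of the strain C57BL/6 and Mettl3 KO neurons (Mettl3-/-) of the strain Mettl3Flox/Flox, so strain and deletion cannot be told apart. Both received an AAV that drives Cre from the neuronal hSyn promoter, at 50000 viral particles per cell on day 7 of culture. All neurons were silenced for 16 h with 1 µM TTX, which blocks sodium channels, and 50 µM D-AP5, which blocks NMDA receptors. Untreated neurons (Ctrl) were harvested on day 15, and KCl-treated neurons after 2 h in 55 mM KCl, which depolarises them. Replicates came from distinct litters, each a pool of pups. By the study's methods, Ctrl and KCl neurons shared a litter, and soma and neurites were paired by culture insert. The soma fraction can also hold neurites that stay above the membrane.

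Metabotropic glutamate receptors fall into 3 groups. Group I receptors, among them the product of Grm5, couple to Gq proteins and phospholipase C and sit mainly at the postsynaptic side of excitatory synapses. Group II receptors (Grm2, Grm3) and group III receptors (Grm4, Grm7, Grm8) couple to Gi and Go proteins, lower cyclic AMP, and many of them limit transmitter release from presynaptic terminals. Grm3 is also made by astrocytes.

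The genes lie on 5 chromosomes of the mouse genome (build GRCm38). Grm5 spans chr7:87584168-88134907 on the plus strand. Grm2 spans chr9:106643095-106656082 and Grm3 spans chr5:9485541-9725170, both on the minus strand. Of the group III genes, Grm4 spans chr17:27422387-27521403 on the minus strand, Grm7 spans chr6:110645581-111567230 on the plus strand, and Grm8 spans chr6:27275119-28135178 on the minus strand. Counting did not use strand, and 3 of the genes share exon bases with an annotated neighbour. Grm2 shares 470 bases with Gm28111, Grm7 shares 130 bases with Gm20387 and Grm8 shares 96 bases with Mir592, and reads from these bases cannot be told apart.

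Promoter windows of 300 bases (250 before and 50 after the start of a transcript, RefSeq, GRCm38.p6) were at hand for 4 of the 6 genes: 1 for Grm2, 1 for Grm3, 2 for Grm7 and 3 for Grm8. Grm4 and Grm5 had no entry. The stretch shown is that of Grm2, the only one of the 6 genes called after KCl. Its capitals mark 2 pieces, searched for as parts of the left and right sides of RE1, the element bound by the repressor REST. The whole element was not searched for, so whether Grm2 holds an intact RE1 was not tested.

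Grm2 promoter, chr9:106656325-106656354, minus strand, 5′ to 3′: ggaTTCAGCACCacactgtGGACAGCtcca

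The left piece TTCAGCACC was found on either strand in 0.371% of 32851 promoter windows, and the right piece GGACAGC in 6.56%. Both together with at most 12 bases between them were found in 12 windows (0.0365%), and the gap in Grm2 was 7 bases. All gaps up to this limit were counted alike, and the gap in Grm2 was not compared with the spacing within RE1. The motifs and this limit were not part of the planned comparisons, so the share is a description and not a test. The cyclic AMP response element TGACGTCA, found in 1.79% of all windows, was in none of the 7 windows of these genes. Its shorter form TGACG (20.8% of windows), which the full element contains, and the AP-1 motif TGANTCA (7.81%) were each found in 1 window, both times of Grm8. These are matches of letters in the windows and show no binding.

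Library totals ran from 33789183 to 71394235 counts. Of the 8 neuron markers, all were above 1 CPM (counts scaled to the library size, given as CPM) in all libraries. Both libraries of KCl-treated Mettl3 KO replicate 1 stood apart: their 8 oligodendrocyte-lineage markers summed to 3768 and 7569 CPM against 58.9 to 125 in WT, their 10 astrocyte markers to 9908 and 19342 CPM against 1158 to 3140, and their neuron markers to 825 and 1334 CPM against 3646 to 5408. Fold changes between groups that include them are given with and without them. Mettl3, the targeted gene, lay at 9.04 to 16.7 CPM in the 8 WT libraries and at 3.91 to 10.97 CPM in the 8 Mettl3 KO libraries, so the ranges over all conditions overlapped. Within each compartment and treatment the Mettl3 KO libraries were below WT, and neither Ctrl difference passed the test (log2 −0.73 ± 0.39 in soma and −1.19 ± 0.39 in neurites, adjusted p of 0.624 and 0.423). These counts cover all exons of Mettl3 and all cells, whereas Cre removes only the floxed exon and was driven in neurons. They therefore do not measure the deletion, for which the paper reports loss of that exon and nearly all METTL3 protein. The SD of the log2 ratio between replicates was 0.193 to 0.396 in WT groups and 0.546 to 1.45 in Mettl3 KO groups, over 15170 genes.

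Levels between genes were compared as CPM per kilobase of exon. In WT Ctrl soma, Grm2 (11.5 ± 0.901, SD, n = 2) and Grm5 (10.3 ± 0.379) were highest, followed by Grm7 (5.34 ± 0.314), Grm4 (2.20 ± 0.0194), Grm3 (0.422 ± 0.0180) and Grm8 (0.102 ± 0.0321). Grm2 and Grm5 were less than 2 of the larger SD apart, while all lower steps exceeded the spread. In WT Ctrl neurites the order was Grm5 (13.5 ± 0.752) and Grm2 (12.4 ± 1.49), whose libraries overlapped, then Grm7 (4.86 ± 1.31), Grm4 (2.09 ± 0.0463), Grm3 (0.753 ± 0.284) and Grm8 (0.0613 ± 0.0335). After KCl, Grm5 stood alone at the top in both WT compartments (12.1 ± 2.38 in soma, 15.9 ± 0.711 in neurites), and Grm2 (5.58 ± 1.57 and 7.61 ± 2.85) lay within its own spread of Grm7 (5.84 ± 0.00788 and 5.02 ± 0.0941).

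In Mettl3 KO Ctrl soma the 4 upper genes were close: Grm5 at 5.22 ± 2.94, Grm2 at 3.17 ± 1.24, Grm7 at 2.77 ± 0.848 and Grm4 at 2.28 ± 0.729 CPM per kilobase, and no step between neighbours exceeded the larger SD. Grm8 was lowest in all 16 libraries, at 0.0377 to 0.125 CPM per kilobase.

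**Figure D1:**
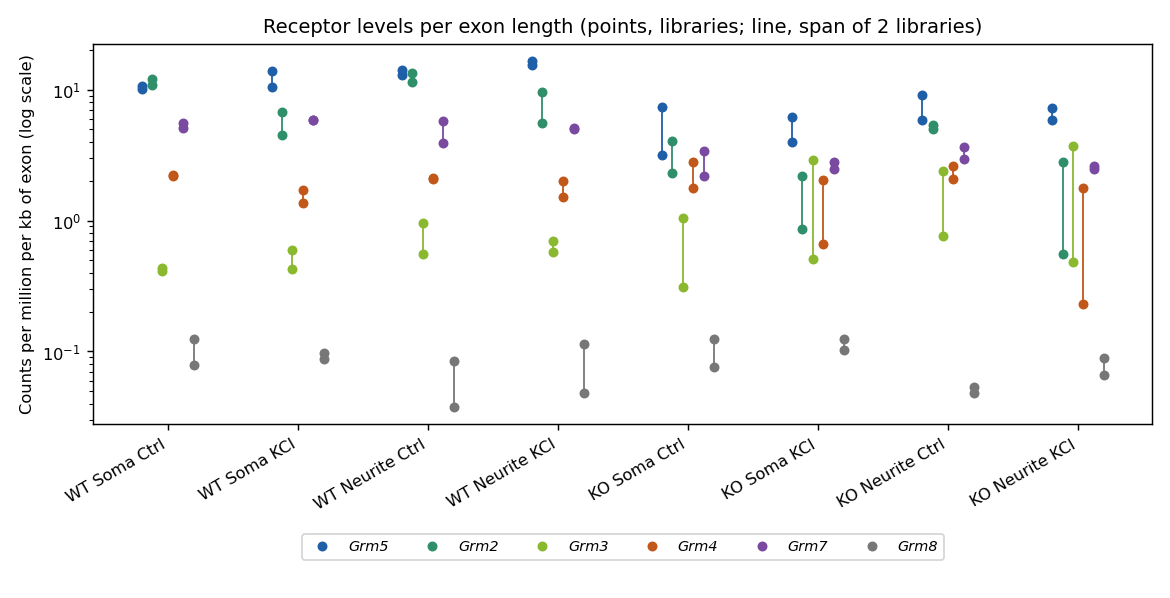
CPM per kilobase of exon (log scale) of the 6 receptor genes in each of the 8 groups, with 1 point per library and a line spanning the 2 libraries. Grm5 and Grm2 lead in WT Ctrl, Grm5 alone leads in WT KCl, and Grm8 lies lowest in all groups.

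The values of each library follow as CPM, scaled by TMM over the 16 libraries, with replicate 1 before replicate 2. Grm5 lay at 109 and 103 CPM in WT Ctrl soma, 144 and 133 CPM in WT Ctrl neurites, 106 and 141 in WT KCl soma, and 168 and 158 in WT KCl neurites. In Mettl3 KO it lay at 74.8 and 32.1 in Ctrl soma, 93.7 and 60.02 in Ctrl neurites, 63.5 and 40.8 in KCl soma, and 59.5 and 74.3 in KCl neurites. WT neurites were thus above WT soma without overlap in both treatments, and every Mettl3 KO library was below every WT library.

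Grm2, the presynaptic group II receptor gene, lay at 53.1 and 59.4 CPM in WT Ctrl soma, 55.4 and 65.7 CPM in WT Ctrl neurites, 21.8 and 32.7 in WT KCl soma, and 47.1 and 27.4 in WT KCl neurites. In Mettl3 KO it lay at 11.2 and 19.8 in Ctrl soma, 24.5 and 26.1 in Ctrl neurites, 4.20 and 10.8 in KCl soma, and 2.698 and 13.6 in KCl neurites. In soma and in neurites of both genotypes, the KCl libraries were below the Ctrl libraries. In Ctrl, Mettl3 KO was below WT without overlap in both compartments, as were 12.7% of 23335 genes. With KCl, Mettl3 KO was below WT in both compartments too. No share of all genes was counted for that, and the Mettl3 KO libraries there include those that stood apart.

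Grm3, the other group II gene, was low in WT, at 1.25 to 2.91 CPM over 8 libraries, with WT Ctrl soma at 1.25 and 1.33 and WT Ctrl neurites at 2.91 and 1.68. In Mettl3 KO, replicate 1 lay at 3.17 in Ctrl soma, 7.34 in Ctrl neurites, 8.87 in KCl soma and 11.2 in KCl neurites, whereas replicate 2 lay between 0.949 and 2.34. The 4 highest Grm3 values were therefore those of Mettl3 KO replicate 1.

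Of the group III genes, Grm4 lay at 13.2 and 13.1 CPM in WT Ctrl soma, 12.3 and 12.7 CPM in WT Ctrl neurites, 8.19 and 10.2 in WT KCl soma, and 11.96 and 9.08 in WT KCl neurites. In Mettl3 KO it was at 10.5 to 16.7 in 6 libraries and at 3.92 and 1.38 in the 2 libraries that stood apart. Without these, the Mettl3 KO and WT ranges of Grm4 overlapped.

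Grm7, the group III receptor of presynaptic active zones, lay at 32.7 and 30.1 CPM in WT Ctrl soma, 23.2 and 34.1 CPM in WT Ctrl neurites, 34.4 and 34.4 in WT KCl soma, and 29.9 and 29.2 in WT KCl neurites. In Mettl3 KO its range was 12.8 to 21.3 over 8 libraries, all below the lowest WT library. Grm8 lay at 0.373 to 1.24 CPM in WT and at 0.478 to 1.24 in Mettl3 KO, or 19 to 71 counts in a Mettl3 KO library, too few to show a moderate change.

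**Figure D2:**
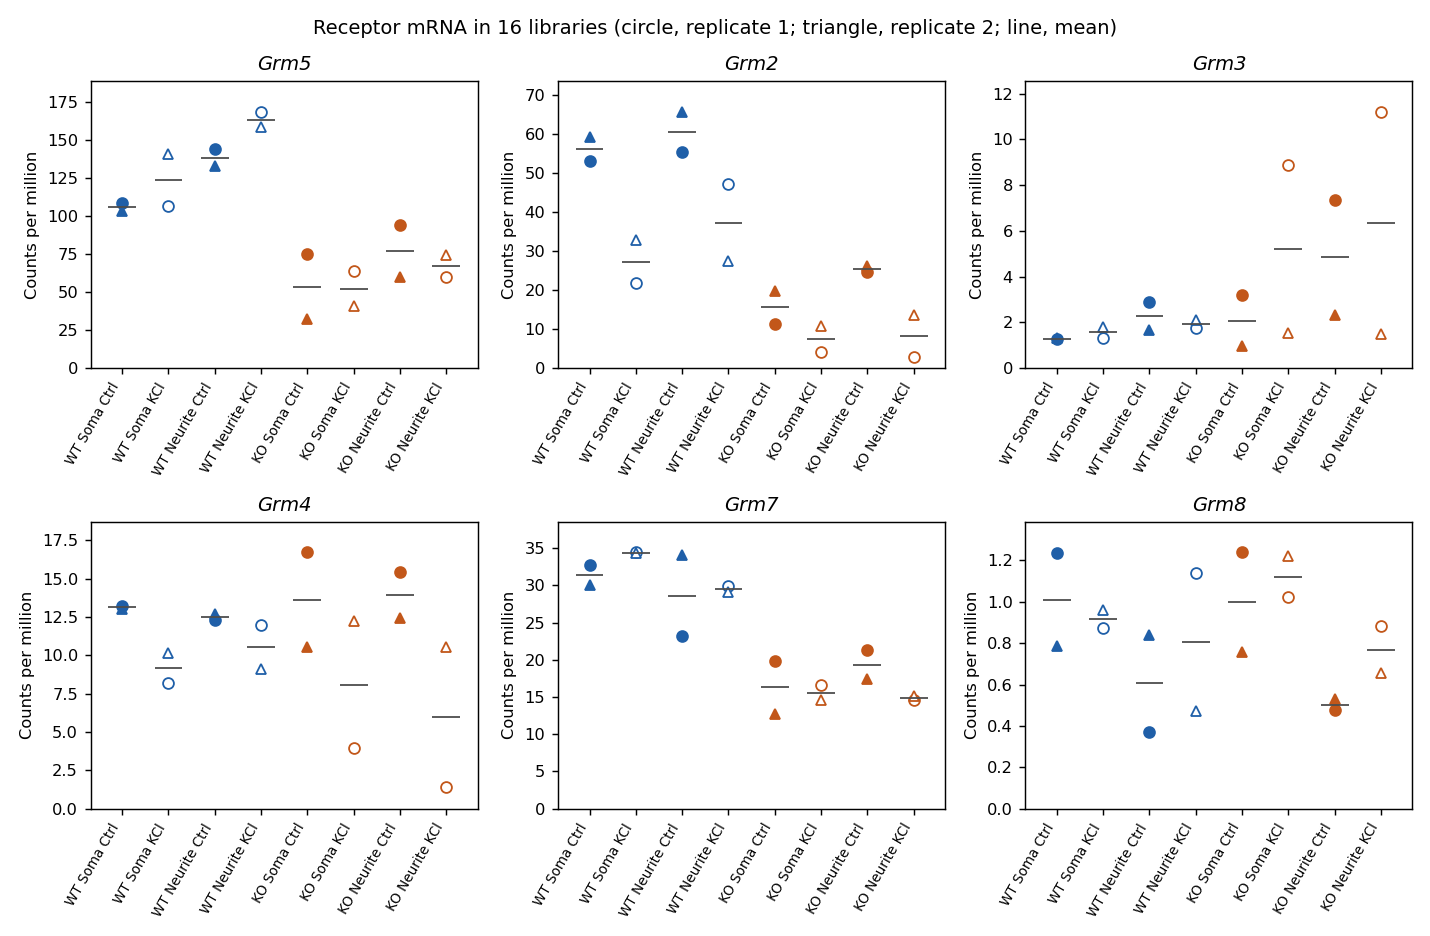
CPM of each receptor gene in 16 libraries (blue, WT; orange, Mettl3 KO; filled, Ctrl; open, KCl; lines, means of 2 libraries; axes start at 0 and differ between genes). Grm2 is lower with KCl in every compartment of both genotypes, Grm5 and Grm7 are lower in all Mettl3 KO libraries than in all WT libraries, and Grm3 is high in replicate 1 of Mettl3 KO.

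The first comparison asked which receptor mRNAs differed between neurites and soma. In WT Ctrl, 0 of the 6 genes passed the threshold of 1.5-fold at an adjusted p of at most 0.05 in edgeR, where 13.6% of 23200 genes tested did. Group I Grm5 differed by log2 0.29 ± 0.14 (SE; adjusted p = 0.177), and group II Grm2 by 0.01 ± 0.25. Grm3 differed by 0.76 ± 0.31 (adjusted p = 0.114), with WT Ctrl neurite replicate 1 at 2.91 CPM deciding its size: the value was 0.29 without that library, and 1.09 with an adjusted p of 0.0485 without replicate 2. At unadjusted p, Grm3 was the only gene of the 6 under 0.05 and past 1.5-fold, as were 20.2% of the 23200 genes.

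In WT Ctrl, the 10 astrocyte markers summed to 1158 and 1181 CPM for soma and to 2048 and 3140 CPM for neurites. They were thus higher in neurites, in the same direction as Grm3. So were oligodendrocyte-lineage markers (58.9 and 67.5 CPM in soma, 116 and 125 in neurites). Sums of neuron, excitatory neuron, microglia, and fibroblast and vessel markers were higher in neurites too, and that of GABA interneuron markers was lower. Camk2a led the excitatory sum at 1446 to 7716 CPM in WT, where no other excitatory marker exceeded 216 CPM. The paper counts Camk2a among the most neurite-enriched mRNAs. Sums that hold such localized mRNAs do not follow cell content alone. The part of any of these cells in the Grm3 value was not tested. For the group III genes, Grm4 differed by log2 −0.16 ± 0.18, Grm7 by −0.23 ± 0.16 and Grm8 by −0.89 ± 0.50, each within 2 SE of 0.

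In WT KCl, again 0 of the 6 genes passed, where 9.6% of 23028 genes did. The smallest adjusted p was that of Grm5, which differed by log2 0.41 ± 0.14 between neurites and soma (adjusted p = 0.082), short of 1.5-fold. It differed by 0.65 without WT KCl soma replicate 2, at 141 CPM, and by 0.24 without soma replicate 1, at 106 CPM. Without WT KCl neurite replicate 1 or 2 it differed by 0.36 or 0.47. The size thus rested on which soma library was kept. Grm5 was the only one of the 6 genes with WT neurites above WT soma without overlap in both treatments, a pattern of 19.7% of 23335 genes.

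The second comparison asked what 2 h of KCl did to each mRNA, with a threshold of 2-fold. Grm2 fell in WT soma by 1.11 on the log2 scale (SE 0.25, edgeR adjusted p = 0.0146), from 56.2 ± 4.41 to 27.3 ± 7.71 CPM (SD, n = 2). It was the only one of the 6 genes past the threshold there, where 6.7% of 24060 genes changed and 2.96% fell. The fit used the 8 WT libraries. With all 16 libraries in 1 fit, whose estimate of spread includes the Mettl3 KO libraries, the fall was 1.05 with an adjusted p of 0.793. The call was also lost without WT Ctrl soma replicate 1 (−1.12, adjusted p = 0.0733), without WT Ctrl soma replicate 2 (−0.96, adjusted p = 0.116) or without WT KCl soma replicate 1 (−0.83, adjusted p = 0.0653).

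In WT neurites, Grm2 differed by log2 −0.66 ± 0.25 after KCl (adjusted p = 0.150) and none of the 6 genes passed, where 5.03% of 22059 did. The libraries of WT KCl neurites were far apart for Grm2, at 47.1 and 27.4 CPM. Without replicate 1 the difference was −1.10 with an adjusted p of 0.0391, and without replicate 2 it was −0.31. Grm2 was the only one of the 6 genes whose KCl libraries lay below its Ctrl libraries without overlap in soma and neurites of both genotypes, a pattern of 3.96% of 23335 genes.

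Grm4 moved in the same direction in WT soma, by log2 −0.59 ± 0.18 (adjusted p = 0.055), short of 2-fold. In WT neurites it differed by −0.21 ± 0.18. Grm2 and Grm4 were the only genes of the 6 whose KCl libraries lay below Ctrl without overlap in both WT compartments, as did 15% of all genes. Grm5 differed by 0.15 ± 0.14 in WT soma and 0.28 ± 0.14 in WT neurites, and Grm7 by 0.05 ± 0.16 and 0.09 ± 0.17. Grm3 and Grm8 differed by no more than their SE in either compartment.

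Whether KCl changed the distribution between neurites and soma was tested as the difference of the 2 neurite-to-soma ratios, at an unadjusted p of at most 0.05 and 1.5-fold. In WT, 0 of the 6 genes passed, against 3.36% of 23200 genes. Grm2 differed by log2 0.43 ± 0.38 and Grm4 by 0.37 ± 0.29. The positive values rested on replicate 1 of the KCl groups: without WT KCl soma replicate 1 or WT KCl neurite replicate 1, Grm2 was at −0.27 and −0.28 and Grm4 at −0.000673 and −0.0143. Without replicate 2 of either KCl group, Grm2 was at 1.14 and Grm4 at 0.75. With 1 term per insert, leaving out the soma or the neurite library takes the same insert out of the comparison. The values for soma and neurites are thus not separate checks, and each rests on the remaining KCl insert.

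**Figure D3:**
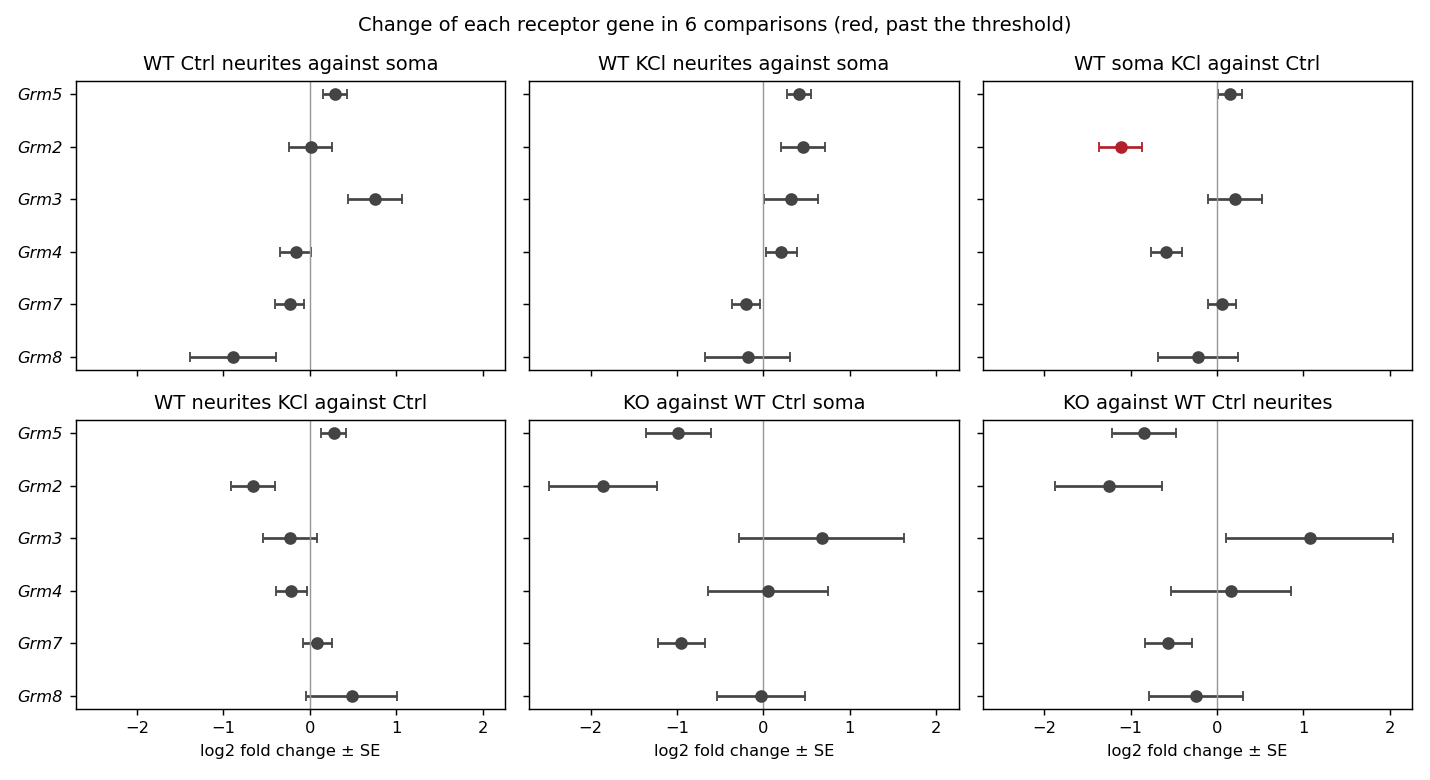
Log2 fold change with its SE (bars) of the 6 receptor genes in 6 comparisons fitted with edgeR, WT comparisons on 8 libraries and genotype comparisons on 16. Grm2 in WT soma after KCl, at −1.11, is the only value past the threshold (red), and the bars are wider in the genotype comparisons.

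The third comparison asked how the mRNAs differed between Mettl3 KO and WT without KCl. In soma, Grm2 differed by log2 −1.86 ± 0.63 (15.5 ± 6.08 CPM against 56.2 ± 4.41), Grm5 by −0.99 ± 0.38 (53.5 ± 30.2 against 105.8 ± 3.89) and Grm7 by −0.95 ± 0.27 (16.3 ± 4.99 against 31.4 ± 1.85). The edgeR adjusted p was 0.388, 0.445 and 0.280, so 0 of the 6 genes passed, where 0.185% of 23750 genes did. For unadjusted p, these 3 genes were under 0.05 and past 1.5-fold, as were 8.57% of all genes tested.

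These calls depended on the fit. DESeq2 called Grm7 in soma (adjusted p = 0.046), as 1 of 417 genes against 44 in edgeR. With KCl-treated Mettl3 KO replicate 1 (2 libraries) left out, which is in neither group compared but enters the estimate of spread, edgeR called Grm2 (log2 −1.89, adjusted p = 0.0314) among 419 genes. Without Mettl3 KO Ctrl soma replicate 1, it called Grm5 (−1.67, adjusted p = 0.0143) and Grm7 (−1.25, adjusted p = 0.0152), among 2640 of 23862 genes (1937 of them lower). Without replicate 2 of that group Grm5 was at −0.53 and 14 genes were called, none of them a receptor gene.

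In neurites the differences between Mettl3 KO and WT were log2 −1.25 ± 0.62 for Grm2, −0.84 ± 0.38 for Grm5 and −0.56 ± 0.27 for Grm7 (adjusted p of 0.717, 0.653 and 0.699). Here too 0 of the 6 genes passed, where 0.188% of 21814 genes did. When the 4 libraries compared were fitted alone, Grm2 was called (−1.24, adjusted p = 0.0411) among 136 genes, against 41. Grm2, Grm5 and Grm7 were below WT without overlap in both Ctrl compartments, as were 12.7% of all genes, and Grm5 and Grm7 were below WT in all 8 against all 8 libraries, as were 2.22%. Sums of the neuron markers were also lower, at 3154 to 3607 CPM in Mettl3 KO Ctrl soma against 3646 to 3749 in WT. In neurites they were 3278 to 3653 against 4779 to 5408. Map2, at 447 to 1847 CPM over the WT libraries, is among these markers. The paper reports lower neurite enrichment of Map2 in Mettl3 KO, so the neurite sum does not follow cell content alone. GABA interneuron markers were not lower in soma, at 667 to 693 CPM in Mettl3 KO against 631 to 667 in WT. In neurites they were lower, at 431 to 455 against 539 to 591. The part of cell composition in the receptor differences was not tested. In RNA from whole cultures, fewer cells of a type and less RNA per cell cannot be told apart.

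Grm3 differed in the other direction, by log2 0.67 ± 0.96 in soma and 1.07 ± 0.96 in neurites, and did not pass (adjusted p of 0.875 and 0.939). Without Mettl3 KO Ctrl neurite replicate 1 the value in neurites was 0.03. In Mettl3 KO Ctrl, astrocyte markers summed to 2539 (soma) and 6739 (neurites) CPM for replicate 1, and to 1942 and 2929 CPM for replicate 2. The 3 libraries with the highest astrocyte sums, 19342, 9908 and 6739 CPM, were those with the highest Grm3, at 11.2, 8.87 and 7.34 CPM in the same order. Oligodendrocyte-lineage markers were highest in the same libraries and in the same order, at 7569, 3768 and 192 CPM. All 3 were Mettl3 KO replicate 1, from 1 litter if the number marks it, so they are not 3 replicates of this match. The next Grm3 value, 3.17 CPM in Mettl3 KO Ctrl soma replicate 1, came with an astrocyte sum of 2539 CPM. That sum was below the 3140 CPM of WT Ctrl neurite replicate 1, where Grm3 was at 2.91 CPM. The part of astrocyte or other glial RNA in the Grm3 values was not tested.

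**Figure D4:**
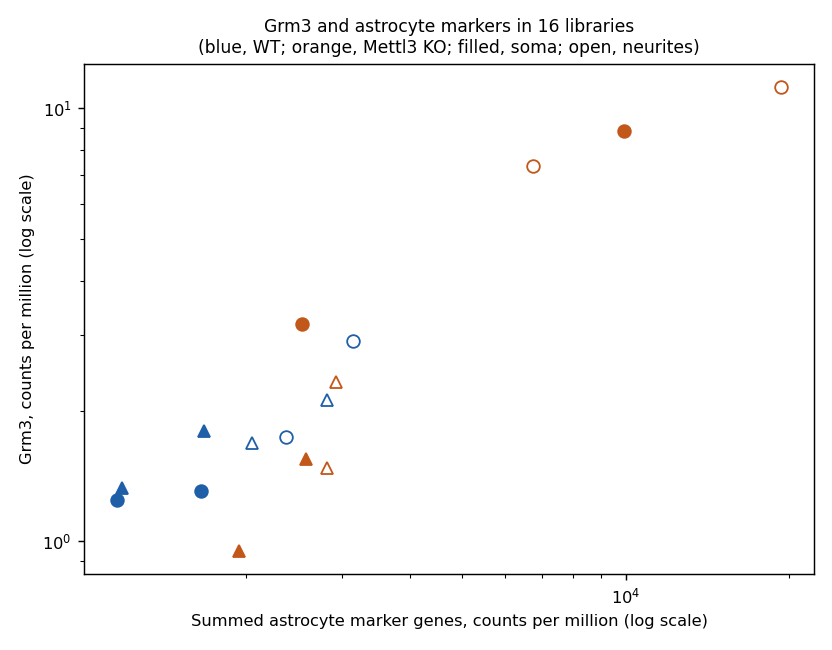
Grm3 against the summed CPM of 10 astrocyte markers in 16 libraries, both on log scales (blue, WT; orange, Mettl3 KO; filled, soma; open, neurites; circles, replicate 1; triangles, replicate 2). The 3 libraries highest for Grm3, at 7.34 to 11.2 CPM, are also the 3 highest for these markers and for oligodendrocyte-lineage markers, which are not shown. All 3 are of Mettl3 KO replicate 1.

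Grm4 and Grm8 differed between genotypes by less than their SE in both compartments. The neurite-to-soma ratio in Ctrl did not pass the test of a genotype difference for any of the 6 genes, with values from log2 −0.14 ± 0.82 (Grm8) to 0.66 ± 0.50 (Grm2), where 4.19% of 22942 genes passed at unadjusted p.

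Within Mettl3 KO, no gene of the 6 passed in any of the 4 comparisons, and edgeR called 0 genes of the whole table in each, so these libraries gave no background to read against. At unadjusted p of at most 0.05 with the same folds, edgeR passed 1239 genes for neurites against soma in Ctrl and 132 in KCl, and 1514 and 1328 for KCl against Ctrl in soma and neurites. DESeq2 called 17, 0, 270 and 253 genes. Without Mettl3 KO Ctrl soma replicate 1, edgeR called 1119 genes for neurites against soma in Ctrl. Grm2 differed after KCl by log2 −1.12 ± 0.79 in soma and −1.72 ± 0.81 in neurites (adjusted p of 0.767 and 0.737), and by −0.57 and −0.88 when both libraries of KCl-treated replicate 1 were left out. Grm3 differed by 1.31 ± 1.17 in soma, and by −0.42 without these libraries.

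The KCl response in soma was also compared between genotypes. It differed for none of the 6 genes, and for 0 of 24058 genes in edgeR (427 at unadjusted p; 2 in DESeq2; 1442 in edgeR without Mettl3 KO Ctrl soma replicate 1). For Grm2 the difference of the responses was log2 −0.01 ± 0.86, and 0.54 ± 0.54 when KCl-treated Mettl3 KO replicate 1 was left out, so with errors of this size only a large difference was detectable.

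Genes that act with these receptors were taken from 5 lists of 80 measured genes. The lists were made with earlier results of these data known, so shares of them are descriptions and not tests. In WT Ctrl, 19 of the 80 were higher in neurites and 4 were lower, with a median of log2 0.09 against −0.10 over all genes tested, where 9.01% of genes were higher and 4.54% lower. Binding partners and scaffolds were higher for 8 of 21 and lower for 0, with a median of 0.29. Among them Shank1, a postsynaptic scaffold, was higher by log2 2.04 ± 0.22 (edgeR adjusted p = 0.000318), and Homer2, which binds group I receptors, by 1.85 ± 0.15 (adjusted p = 0.000114). With all 16 libraries in 1 fit, edgeR called 0 genes in either WT neurite comparison (1637 and 1115 at unadjusted p), and the adjusted p was 0.603 for Shank1 and 0.319 for Homer2 in WT Ctrl. Trpc6, a cation channel that acts below group I receptors, was lower by log2 −1.37 ± 0.28 (adjusted p = 0.00804).

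The other lists held fewer genes past the threshold in WT Ctrl. For G proteins and effectors of group I receptors it was 3 of 17 higher and 2 lower, for those of group II and III receptors 3 of 19 higher and 0 lower, for regulators 4 of 14 higher and 1 lower, and for glutamate transporters 1 of 9 higher and 1 lower. In WT KCl, 20 of the 80 genes were higher in neurites and 5 lower (6.87% and 2.73% of all genes). Shank1 and Homer2 again led, at 1.94 ± 0.21 and 1.60 ± 0.15, and Rgs2, a brake on Gq signalling, was lower in neurites at −0.94 ± 0.16 (adjusted p = 0.0042).

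After KCl, 3 of the 80 genes rose in WT soma and 4 in WT neurites, and 0 fell (3.74% and 3.33% of all genes rose). Rgs2 rose by log2 3.38 ± 0.17 in soma and 3.23 ± 0.17 in neurites (adjusted p of 6.32e-07 and 2.24e-06). Homer1, whose short form is induced by activity and uncouples group I receptors from their scaffold, rose by 2.77 ± 0.24 and 2.17 ± 0.24 (adjusted p of 3.15e-05 and 0.000327). Both passed in all 11 alternatives in both compartments, including the fit to all 16 libraries. Counts per gene do not separate the short and long forms of Homer1.

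In the change of neurite enrichment with KCl, 2 of the 80 genes were higher and 1 lower at unadjusted p, where 3.36% of all genes passed: the G protein subunits Gnb2 (log2 0.88 ± 0.28) and Gnai1 (0.63 ± 0.18), and Homer1 (−0.59 ± 0.18), all with an adjusted p of 0.999. Of 15 alternatives, Gnb2 passed in 8 (0.43 to 1.33), Gnai1 in 6 and Homer1 in 8. In Mettl3 KO against WT, 0 of the 80 passed in soma or neurites. In the genotype difference of Ctrl neurite enrichment, the potassium channel gene Kcnj3 (0.79 ± 0.32) and the phospholipase gene Plcb4 (−0.70 ± 0.28) passed at unadjusted p (4.19% of all genes did), with an adjusted p of 0.934. They passed in 6 and 7 of 15 alternatives.

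The genes with the most similar pattern were found by the root-mean-square difference of log2 CPM over the 8 group means, each centred on its own mean, among 12690 protein-coding genes. The group means include the 2 libraries that stood apart, and the ranking was not repeated without them. They included Plcxd2 (0.109) for Grm5 and Kcnj11 (0.285) for Grm2. For Grm3 they were Pdlim4 (0.121) and Arap1 (0.126). For Grm4 they were Rasgef1a (0.134) and Dagla (0.149), and for Grm7 Sez6l (0.0940) and Dctn5 (0.0941). For Grm8, with 12691 candidates, they were Smg1 (0.0871) and Chuk (0.115). The median over all candidates was 1.23 for Grm2 and 0.521 to 0.710 for the others.

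None of the 6 genes had a row among the 5643 genes of the DART-seq score table or a site among its 18231 sites, so their methylation was not analysed here. The share of protein-coding genes with a row rose with the level: 5.48% of genes with 10 to 100 mean WT counts per kilobase, 26.5% with 100 to 300, and 64.2% with 300 to 1000. Grm5 (702 counts per kilobase) and Grm2 (511) lie in the last of these classes, Grm7 (293) and Grm4 (106) in the one before it, and Grm3 (31.4) in the lowest named, while Grm8 (4.81) lies in a class where 1.08% of genes had a row. A missing row does not show that a transcript carries no m6A.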

How the data were processed

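The authors aligned reads to mm10 with STAR 2.7.7a and counted them with featureCounts 2.0.1 without strand, and the deposited values are raw counts per gene. The authors' tables of mean signal (counts divided by DESeq2 size factors) were read for gene names only, and their fold changes and p-values were not used. In the DART-seq files the deposited values are the authors' counts of called sites and C-to-U fractions averaged over libraries, which leaves no replicate values.

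Counts were tested in edgeR 4.0.16 (R 4.3.3) with TMM scaling and its two-sided quasi-likelihood test, and p-values were adjusted over all genes tested by the Benjamini-Hochberg method. WT comparisons were fitted to 8 WT libraries, Mettl3 KO comparisons to 8 Mettl3 KO libraries and genotype comparisons to 16. Changes in neurite enrichment had 1 term per insert. Genes with a mean count under 10 over the compared libraries and mitochondrially encoded genes were left out. The SE is the absolute log2 change divided by the square root of F. Thresholds were 1.5-fold for enrichment and genotype and 2-fold for KCl. The study's methods use these, with 2-fold for KCl in soma only. Here 2-fold was also used in neurites and for the genotype difference of the KCl response. The study tested changes of enrichment with Xtail, not with edgeR. With 2 cultures per group, p-values of fits by group measure the spread between libraries of a group, which came from distinct litters. These fits do not use the litter shared by Ctrl and KCl or the insert shared by soma and neurites. With 1 term per insert, p-values measure the spread of neurite-to-soma ratios between inserts. Reads carried no molecular identifiers, and their number bears on counting error only.

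The receptor genes, the lists of associated genes and the choice of libraries for each fit were made with earlier results of these data known, including the wide spread of the Mettl3 KO libraries. Besides the receptor genes and Mettl3, the text names at most the 2 largest rises and 2 largest falls of the lists in each comparison, and the 2 genes most alike to each receptor gene. A few genes that this rule picks are not reported here. DESeq2 1.42.0, RLE scaling, other filters, other sets of libraries, a replicate block and leaving out each library were alternatives. The tests were tried on simulated data. Figures used matplotlib 3.10.9.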

Additional observations from a re-analysis of the deposited data

How the results depend on the processing

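Of 13 counts of receptor genes past the threshold, those for the following changed. In WT soma after KCl the count was 1, and 0 with all 16 libraries or, with 1 library left out, 0 to 1. With 1 library left out the count ranged from 0 to 1 for neurites against soma in WT Ctrl and in WT KCl and for WT neurites after KCl, and from 0 to 2 for the change of neurite enrichment with KCl in WT and for Mettl3 KO against WT in Ctrl soma. In the last, it was 1 with DESeq2 and 1 without KCl-treated Mettl3 KO replicate 1. In Ctrl neurites it was 1 with the compared libraries alone. A lone sample left in a group was assumed to vary like the other groups.

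Of 78 log2 values of the receptor genes, 41 changed sign with 1 library left out and 11 under another alternative, none past the threshold. When both libraries of KCl-treated Mettl3 KO replicate 1 were left out, Grm3 in Mettl3 KO soma after KCl was −0.42 and the genotype difference of the Grm2 response 0.54. Grm2 in WT Ctrl neurites against soma was −0.0195 with no filter and −0.0161 at a mean count of at least 100. With 1 library left out, values of WT Ctrl neurites against soma ran from −0.11 to 0.17 for Grm2 and from −0.53 to 0.0221 for Grm7. After KCl, Grm5 in WT soma ran from −0.0775 to 0.36 and Grm7 in WT neurites from −0.17 to 0.38. The change of enrichment with KCl in WT ran from −0.28 to 1.14 for Grm2 and from −0.0143 to 0.75 for Grm4. Grm3 ran from −0.40 to 2.28 in Mettl3 KO soma after KCl and from −0.39 to 1.27 in Mettl3 KO against WT Ctrl soma. Grm8 ran from −1.05 to 0.79 in the genotype difference of Ctrl enrichment, and Grm2 from −0.85 to 0.50 in that of the KCl response. Causes were not tested.

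All groups have the same replicate numbers. Deviations of same-numbered libraries correlated at −0.137 to 0.190 in 7 pairs of groups and at 0.897 in Mettl3 KO KCl soma and neurites, so a number is only a hint of pairing, although the fits of enrichment changes paired soma and neurites by it. The replicate block, or its removal from those fits, changed no call of a receptor gene: the count stayed 1 in WT soma after KCl (Grm2, −1.12, edgeR adjusted p = 0.0240) and 0 in the other 3 WT comparisons of compartment or KCl, the 4 within Mettl3 KO and both enrichment changes. No block was fitted for Mettl3 KO against WT in Ctrl soma, in Ctrl neurites or in the soma KCl response. With the WT Ctrl neurite numbers crossed, chosen after the data were seen, 0 receptor genes passed in WT Ctrl neurites against soma and in both changes of enrichment.

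Over all genes, the change of enrichment with KCl in WT had 779 calls (465 higher, 314 lower), 790 with RLE scaling (343 higher, 447 lower), 498 with DESeq2, 291 with 16 libraries, and 518 to 1666 with 1 library left out. The genotype difference of Ctrl enrichment had 962, 1584 with DESeq2, 297 with no replicate block, and 246 (without WT Ctrl neurite replicate 2) to 4946 (without Mettl3 KO Ctrl neurite replicate 1). With no filter they had 1457 and 2667. Mettl3 KO against WT had 44 and 41 in soma and neurites, 417 and 313 with DESeq2, and 4 to 2640 (without Mettl3 KO Ctrl soma replicate 1) and 4 to 14 with 1 library left out. The lowest such WT counts for neurites against soma were 1068 in Ctrl (3145 with all) and 752 in KCl (2211).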
